A study of Homo sapiens with 3 samples.

Results

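Actins, profilins, cofilin and tubulins are the main structural proteins of actin filaments and microtubules and the factors that control filament turnover, and their messenger RNAs are abundant in most cultured cells. The 10 genes described here were ACTB, ACTG1, PFN1, PFN2, CFL1, TUBA1A, TUBA1B, TUBA1C, TUBB and TUBB4B. Their peaks were taken from 3 lists of RNA crosslinked to HA-tagged HNRNPA0 as those filed under the Ensembl gene ID of the gene, and they came to 100 of 48938 distinct peaks, in 9 of the 10 genes. Over the genome 27.6% of 20043 nuclear protein-coding genes had a peak in any list. The study, on RNA G-quadruplexes and the proteins that bind them, used easyCLIP, in which ultraviolet light joins RNA to protein and the protein is then pulled down with its RNA. HNRNPA0 belongs to the hnRNP A/B proteins, which bind newly made and mature RNA. All 3 samples formed 1 group: HEK293T cells of the WT genotype, a line of human embryonic kidney origin that carries the SV40 large T antigen, transfected with 750 ng of the HNRNPA0 vector on a 15 cm plate and irradiated at 254 nm. HNRNPA0 was thus expressed from a vector by transient transfection and captured through its tag, and no control library was used here. Replicates were separate portions of lysate that were pooled after the first adapter had marked each with a barcode. The labels do not say whether they came from separate cultures, so the spread between them may be technical.

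Actin exists as single subunits and as filaments. Profilin binds the subunits and feeds them to growing filament ends, and cofilin severs and disassembles older filaments. Microtubules are built of alpha-tubulin and beta-tubulin, which pair as they leave the chaperones that fold them, and cells adjust tubulin messenger RNA levels to the amount of free tubulin. Most members of these families have close paralogs whose coding sequences are similar, while their untranslated ends differ more. How the authors treated reads that fit several places was not given in the sources used here, so the split between ACTB and ACTG1, among TUBA1A, TUBA1B and TUBA1C, and between TUBB and TUBB4B is uncertain within coding sequence.

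TUBA1B, an alpha-tubulin gene, held a peak at the very start of its transcript in all 3 replicates, and bases near the start of this region are shown because it was the only region found in every replicate that lay at the 5' end of any of the 10 genes. The letters are the transcript strand of chr12:49131346-49131375 (GRCh38.p14, minus strand, RefSeq), which is bases 21 to 50 of the gene. Capitals mark the 19 bases inside the peaks of at least 2 replicates, and the lower-case bases lay in the peak of replicate 2 alone. The last 3 of the 30 bases lay in the peaks of all 3 replicates, and the region goes on beyond them.
TUBA1B start: tcttagcttgtCGGGGACGGTAACCGGGAC
The run held 11 G, 7 C, 5 A and 7 T. The letters TAG, read on the transcript strand only, occurred 1 time, and 18.4% of the 35116 windows of the same length and place at annotated gene starts held them. The letters GGG occurred 3 times with overlapping matches counted, and 46.1% of the same windows held them. These matches describe the letters and do not mark a binding site.

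Replicates 1, 2 and 3 had 15661, 15486 and 17791 distinct peaks. Each peak's name ends in a whole number, taken here as its count of reads and called the read number. It summed to 100038, 99141 and 114203 over nuclear-encoded genes, and no peak was listed with a read number under 3, so a gene without a peak may still have had reads. Peaks of neighbouring stretches can share reads, so sums are descriptions, and no counting interval is attached to them. Of 8 genes known from HEK293-type cells, VIM and NEFM had peaks, and PAX2, NEFL, KRT8, KRT18, GATA3 and LHX1 had none. No peak was assigned to ALB, HBB, PTPRC or CD3E, genes of liver, red cells and leukocytes, and a peak list is only a weak check of cell identity. The files hold no RNA levels, so more binding and a more abundant transcript cannot be told apart.

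TUBB and ACTG1 carried most of the signal of the group. The 10 genes together held read numbers of 458, 417 and 370 in replicates 1, 2 and 3, which was 0.401% ± 0.0691 of the nuclear-encoded total (SD, n = 3). TUBB and ACTG1 supplied 57.2% ± 2.91 of that, and with TUBA1B and PFN2 added the share was 84.3% ± 4.31 (SD, n = 3). Peaks that shared at least 1 bp on 1 strand were joined into a region, and a region found in every replicate needed a peak of the gene in all 3 lists. Of the 10 genes, 7 held such a region, against 5.99% of 20043 nuclear protein-coding genes and 21.4% of 6566 nuclear gene IDs with a peak in any list. The 10 genes are short apart from TUBA1C, and among genes of 6000 nt or less that had a peak the share was 28.7% of 314. In all, 16 regions were found in every replicate, 16 in exactly 2 and 18 in a single replicate. Of the 16, 14 had at least 1 base inside a peak of all 3 lists. The exceptions were a PFN2 region and a CFL1 region that were linked through a chain of overlaps.

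**Figure D1:**
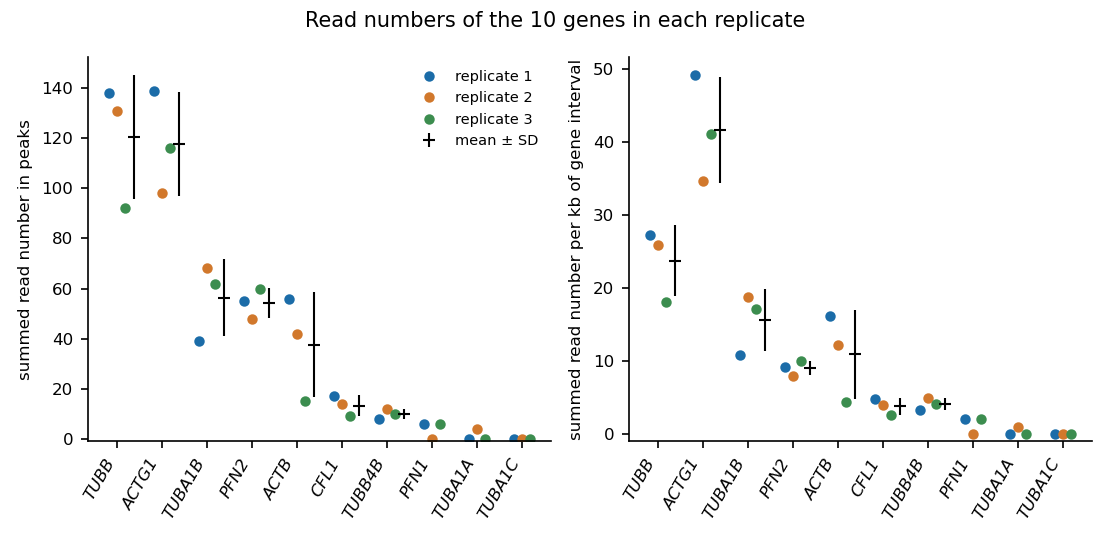
Summed read number of peaks (left) and the same per kb of the RefSeq gene interval (right) for the 10 genes in order of their total, with 1 point per replicate and the mean ± SD (n = 3) for the 7 genes with a peak in every list; a point at 0 means that no peak was listed. TUBB and ACTG1 lie between 92 and 139 in every replicate, and no other gene exceeds 68.

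The 2 cytoplasmic actins differed in read number in the same direction in all 3 replicates. ACTG1 (ENSG00000184009), which encodes gamma-actin, lies at chr17:81509971-81512799 on the minus strand and had summed read numbers of 139, 98 and 116. ACTB (ENSG00000075624), which encodes beta-actin, lies at chr7:5527148-5530601 on the minus strand and had 56, 42 and 15. Every ACTG1 value lay above every ACTB value, and ACTB was lowest in replicate 3. The mean log2 difference of ACTG1 over ACTB was 1.83 ± 0.97 (SD, n = 3), a geometric mean of 3.55-fold. Per kb of gene interval ACTG1 averaged 41.6 ± 7.26 and ACTB 10.9 ± 6.03 (SD, n = 3), and the log2 difference on that scale was 2.12. Without replicate 3 the mean log2 difference was 1.27. An exact two-sided sign-flip permutation test over 3 libraries cannot give a p under 0.25. It gave 0.25 for this pair and for each of the other 4 paralog pairs, and 0.25 after Benjamini-Hochberg adjustment over the 5 pairs. No pair could therefore pass a threshold of 0.05.

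The strongest ACTG1 signal lay near the 3' end of the gene, in adjoining regions. The first, at chr17:81510270-81510405, had highest read numbers of 44, 34 and 38, and its centre lay 366 nt from the 3' end. The second, at chr17:81510406-81510598, had 34, 42 and 37, with its centre 531 nt from the 3' end. These regions touch end to end and may be 1 stretch. The authors' lists mark an unlabelled position within each peak, taken here as that of highest signal. It fell within 10 nt over the 3 replicates in the first region and within 26 nt in the second. Another ACTG1 region, at chr17:81511920-81512029 and 826 nt from the 5' end, had lower read numbers of 22, 9 and 17.

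ACTB had no counterpart of that strength near its 3' end. Its only region found in every replicate, at chr7:5528393-5528683, lay 1390 nt from the 3' end, with highest read numbers of 12, 20 and 6. It was made of 5 peaks, and the marked positions differed by 121 nt. Nearer to the 3' end, a region centred 304 nt from it had a read number of 8 in replicate 1 and of 5 in replicate 3. Another centred 696 nt from the 3' end had peaks in replicates 1 and 2, with 12 and 5. Of the remaining ACTB peaks, 5 were found in a single replicate, among them a peak of 14 nt in replicate 2 with a read number of 4, whose centre lay 68 nt from the 5' end.

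**Figure D2:**
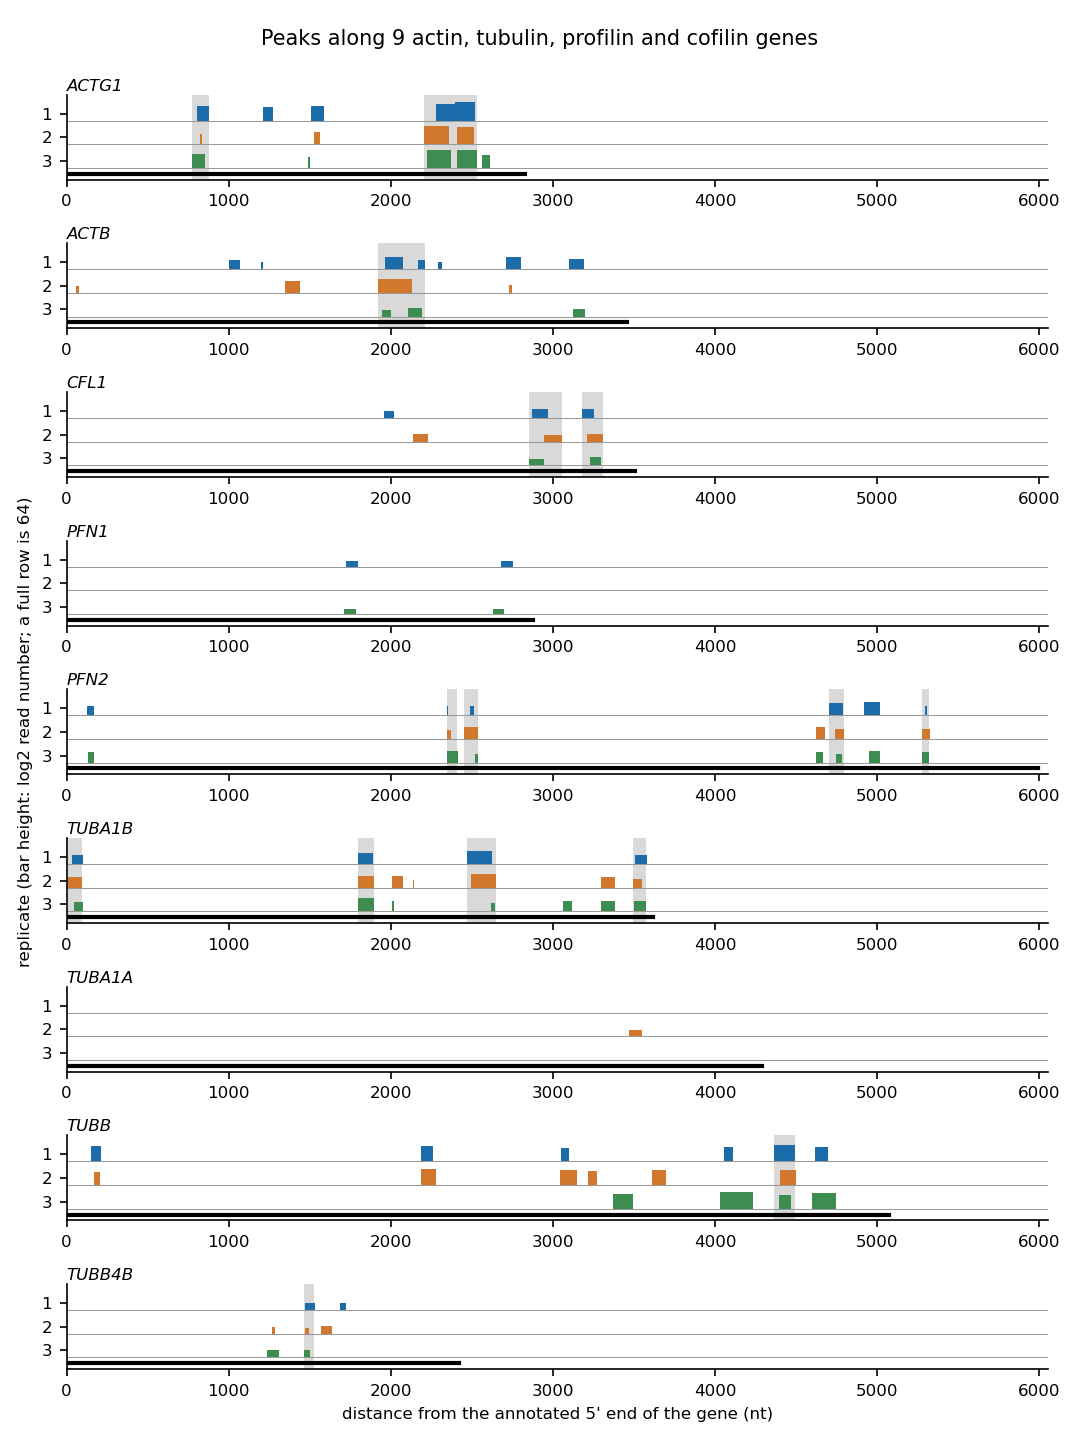
Peaks of the 9 genes that held any, drawn to scale by distance from the annotated 5' end in nt, with a row per replicate (1 at the top) and bar height giving the log2 read number. The black line is the length of the gene interval and grey bands are regions found in every replicate, of which ACTG1 holds 3 near 826, 2298 and 2463 nt and TUBA1B holds 4 from its first bases to its last.

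Cofilin had few reads. CFL1 (ENSG00000172757), the non-muscle cofilin gene at chr11:65854673-65858180, had summed read numbers of 17, 14 and 9. Its 2 regions found in every replicate were centred 265 and 556 nt from the 3' end, with highest read numbers of 6, 5 and 5 in the first and 7, 4 and 4 in the second. All of these stood close to the lowest read number listed, and in the second region no base lay in all 3 lists.

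Of the 2 profilin genes, PFN1, which is expressed in nearly all cell types, had much lower read numbers than PFN2, which is best known from the nervous system. PFN1 (ENSG00000108518), at chr17:4945652-4948530, had 2 peaks with a read number of 3 in replicate 1, none in replicate 2 and 2 with a read number of 3 in replicate 3. The peaks of replicates 1 and 3 overlapped, 190 and 1124 nt from the 3' end. PFN2 (ENSG00000070087), at chr3:149964904-149970895, had summed read numbers of 55, 48 and 60. PFN1 minus PFN2 was -49, -48 and -54, and no ratio is given because PFN1 had no listed peak in replicate 2. Per kb of gene interval PFN1 had 2.08, none and 2.08, and PFN2 averaged 9.07 ± 1.01 (SD, n = 3), the smallest relative spread among the 7 genes with a peak in every list.

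PFN2 peaks were many and of even height. The gene held 6, 5 and 7 peaks with read numbers between 6 and 15, and 4 regions were found in every replicate, centred 693, 1242, 3496 and 3615 nt from the 3' end. The first had 7, 8 and 9 in replicates 1, 2 and 3, and the second had 12, 8 and 6. The other regions, 3496 and 3615 nt from the 3' end, had 7, 12 and 6 and 7, 7 and 11. The ranges of the 4 regions overlapped. The highest PFN2 peaks of replicates 1 and 2, with 15 and 13, lay in regions found in only 2 lists. A further region 147 nt from the 5' end had a read number of 7 in replicate 1 and of 9 in replicate 3. Gene ID ENSG00000206199 also held 10 peaks inside the PFN2 interval, on the same strand, and every one overlapped a PFN2 peak of the same replicate. It was not added to PFN2. Its read number equalled that of the PFN2 peak in 7 of the 10 cases. In replicate 2 the 2 IDs gave 9 for ENSG00000206199 and 13 for PFN2 at almost the same bases. The read number could thus differ with the ID under which a peak was filed. The bounds of those 2 peaks differed slightly as well, and the cause was not tested.

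Among the alpha-tubulins nearly all of the signal was filed under TUBA1B. TUBA1B (ENSG00000123416), at chr12:49127782-49131395, had summed read numbers of 39, 68 and 62. TUBA1A (ENSG00000167552), a paralog best known from developing neurons, at chr12:49184795-49189080, had 1 peak in all, with a read number of 4 in replicate 2. TUBA1C, at chr12:49227926-49274600, had no listed peak. TUBA1B minus TUBA1A was 39, 64 and 62, and TUBA1B minus TUBA1C was 39, 68 and 62, so the direction held in 3 of 3 replicates for both. TUBA1B held 4 regions found in every replicate, and they ran along the whole gene. The region at the 5' end, chr12:49131298-49131390, which contains the bases shown above, had highest read numbers of 7, 9 and 7. The next, centred 1847 nt from the 5' end, had 10, 12 and 17, and 92 of its 100 bases lay in all 3 lists. The third, 2558 nt from the 5' end, had 15, 16 and 6. The last, centred 79 nt from the 3' end, had 7, 6 and 8. The end regions were thus alike in height, and the middle regions were higher in replicates 1 and 2, while in replicate 3 only the second was.

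Regions at the very 5' end were rare in these data. Of the gene IDs of protein-coding genes with a region in every replicate, of which several can be tied to 1 gene, 1.43% of 1262 had such a region centred within 200 nt of the annotated 5' end, and of the 10 genes TUBA1B did. That share covers genes of every length, and it was not taken for short genes alone. A peak of any replicate centred within 200 nt of the 5' end was listed for 4 of the 9 genes with a peak, ACTB, PFN2, TUBA1B and TUBB, against 6.85% of 5854 protein-coding gene IDs with a peak and 16.6% of the 314 in genes of 6000 nt or less. The distance of 200 nt was chosen after these peaks had been seen.

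The beta-tubulin genes differed in the same direction in all 3 replicates. TUBB (ENSG00000196230), at chr6:30720352-30725422 on the plus strand, had summed read numbers of 138, 131 and 92. TUBB4B (ENSG00000188229), at chr9:137241287-137243707 on the plus strand, had 8, 12 and 10. The mean log2 difference of TUBB over TUBB4B was 3.59 ± 0.47 (SD, n = 3), a geometric mean of 12.01-fold. Per kb of gene interval TUBB averaged 23.7 ± 4.89 and TUBB4B 4.13 ± 0.826 (SD, n = 3), and the log2 difference on that scale was 2.52, or 5.73-fold. With the highest peak of each gene in place of the sum, the mean log2 difference was 2.74.

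TUBB had strong peaks that mostly did not fall in the same place in the 3 lists. Its single region found in every replicate, chr6:30724713-30724846, was centred 643 nt from the 3' end and had highest read numbers of 33, 24 and 17. That region held 23.9%, 18.3% and 18.5% of the gene's summed read number. The highest TUBB peak lay in a different region in each list, 4428 nt from the 5' end in replicate 1 with a read number of 33, 2232 nt in replicate 2 with 28, and 4130 nt in replicate 3 with 32. TUBB had 10 peaks with at least 20 reads, and 2 of them fell into its region found in every replicate. Of the 9 such peaks in the other genes, 8 lay in a region found in every replicate. All 9 were peaks of ACTG1 or ACTB, and most lay in the adjoining ACTG1 regions, so they do not stand for the other genes at large. Over all nuclear peaks with read numbers from 20 to 49 the share was 87.3% of 1113.

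The peaks listed along TUBB differed between the 3 replicates. No TUBB peak was listed below 16, 16 and 17 reads in replicates 1, 2 and 3, so a stretch without a listed peak may still have had reads. Peaks 180 and 2232 nt from the 5' end were listed in replicates 1 and 2, at 25 and 16 reads for the first and 26 and 28 for the second, and neither was listed in replicate 3. The second began at the same base, 30722537, in both replicates. Regions centred 402 and 941 nt from the 3' end were listed in replicates 1 and 3, with 20 and 24 at the first and 18 and 32 at the second, and not in replicate 2. Peaks 3245 and 3651 nt from the 5' end were listed in replicate 2 alone, and a peak 3431 nt from it in replicate 3 alone. All 4 TUBB peaks of replicate 3 lay in the 3' segment when the gene interval was cut into 3 equal segments.

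TUBB4B signal was low and lay mostly in the middle of its gene interval, apart from 1 peak of replicate 1 centred 718 nt from the 3' end. Its region found in every replicate, chr9:137242748-137242814, was centred 926 nt from the 3' end and had highest read numbers of 4, 3 and 5. All TUBB4B read numbers lay between 3 and 5.

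The lowest read number that was listed differed between genes. The lowest listed read number was 16, 16 and 17 in TUBB and 17, 9 and 10 in ACTG1, against 5, 4 and 4 in ACTB and 3 and 3 in the 2 replicates with PFN1 peaks. Across genes of 6000 nt or less with a summed read number of 80 or more, the median lowest read number was 16, 9 and 10 in the 3 lists, over 11, 11 and 9 genes. Single genes among them ranged from 5 to 107, from 3 to 89 and from 4 to 77 in replicates 1, 2 and 3. Across genes of 50000 nt or more with sums as high the median was 3 in every list, with single genes up to 74, 265 and 128. Whether TUBB or ACTG1 had stretches with fewer reads than their lowest listed peaks cannot be read from these files.

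The authors' p-value for a given read number differed between genes as well. A read number of 7 had a p-value of 1.11e-05 in PFN2 in replicate 1 and of 0.00211 in TUBA1B in the same replicate. A read number of 12 had 1.61e-10 in PFN2 and 7.83e-06 in TUBA1B, both in replicate 2. A read number of 17 had 2.87e-12 in ACTG1 in replicate 1 and 1.82e-08 in TUBB in replicate 3. At 4 and 5 reads the least extreme p-values were those of TUBB4B, 0.0177 in replicate 1 and 0.00762 in replicate 3. The tubulin genes thus held the least extreme p-value at these 5 read numbers, while at 13 reads, where no tubulin peak was listed, ACTG1 did.

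**Figure D3:**
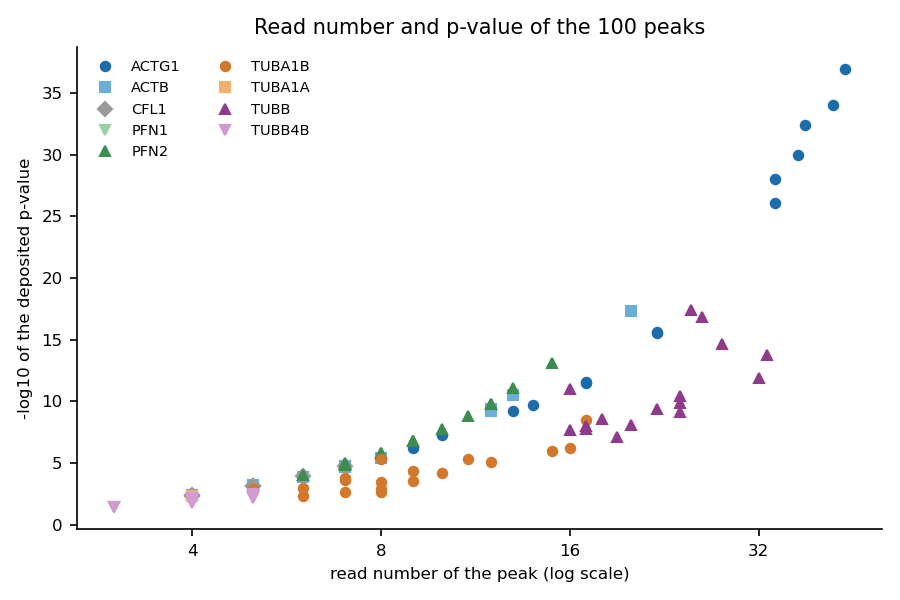
Read number of each of the 100 peaks (log scale) against -log10 of the p-value deposited by the authors, with 1 symbol per gene. TUBA1B (filled circles, orange) and TUBB (upward triangles, purple) lie below PFN2, ACTB and ACTG1 at the same read number, and no TUBB peak lies under a read number of 16.

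Along the gene, the read numbers of the group leaned to the 3' side to about the same degree as in other genes. Of the summed read number of the 9 genes, 57.4% ± 11.9 lay in the 3' segment, 31.6% ± 11.3 in the middle segment and 11.0% ± 3.37 in the 5' segment (SD, n = 3). In genes of 6000 nt or less the 3' segment held 56.3% ± 4.96, and over all protein-coding gene IDs it held 61.3% ± 0.478 (SD, n = 3), both counted with the 9 genes included. The difference was within the spread between replicates. The 9 genes had 53.5%, 48.0% and 70.8% in the 3' segment in replicates 1, 2 and 3. TUBB alone had 51.4%, 35.1% and 100% there. The intervals span introns as well, and which peaks fall in exons, introns or untranslated ends was not analysed here.

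The genes differed among themselves in this respect. The 3' segment held 56.1%, 77.6% and 76.7% of the ACTG1 read number, against 35.7%, 11.9% and 33.3% of that of ACTB, and the values did not overlap. In PFN2 it held 59.6% ± 2.66 and in TUBA1B 50.1% ± 5.62 (SD, n = 3). In TUBB4B it held 50.0% in replicate 1 and none in the others. CFL1 had no peak in its 5' segment in any replicate.

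**Figure D4:**
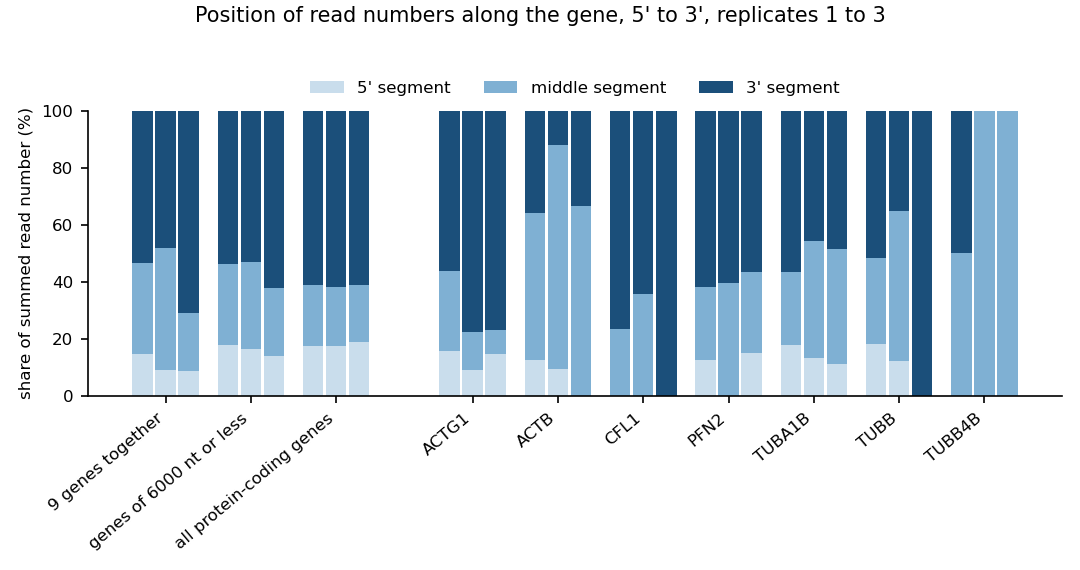
Share of the summed read number (%) in 3 equal segments of the gene interval, from light (5' segment) through mid blue to dark (3' segment), with 1 bar each for replicates 1, 2 and 3. The left sets are the 9 genes together, genes of 6000 nt or less and all protein-coding gene IDs, and the right sets are the 7 genes with a peak in every list. TUBB in replicate 3 has all of its read number in the 3' segment.

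Pooled over the 9 genes, peaks had a higher median read number than peaks at large, but this did not hold in every gene. All PFN1 peaks had 3, the TUBA1A peak had 4 and TUBB4B peaks had 3 to 5, while no TUBB peak was listed under 16. The pooled peaks were more often shared below 10 reads and less often above, and from 20 reads up the lower share was that of TUBB peaks. The median read number of a peak was 8, 9 and 8 in the 3 lists for the 9 genes, against 4 in each list over all nuclear peaks. The median width was 73.5 ± 5.89 nt for the 9 genes and 63.0 ± 1.00 nt over all (SD, n = 3). Of the 9 genes' peaks, 50.1% ± 2.65 lay in a region found in every replicate, against 16.2% ± 1.22 of all nuclear peaks (SD, n = 3). The share over all nuclear peaks covers genes of every length and was not taken for short genes alone. Within peaks of a read number from 4 to 6 the share was 50.0% of 26 for the 9 genes and 12.4% of 17632 over all, while from 10 to 19 it was 42.3% of 26 and 57.4% of 3640. From 20 to 49 it was 52.6% of 19 for the 9 genes and 87.3% of 1113 over all. Of these 19 peaks TUBB held 10, and 2 of them lay in a region found in every replicate. Of the 9 in the other genes, all in ACTG1 or ACTB, 8 did. These shares were not tested. The distance between the marked positions of the 3 replicates had a median of 21 nt over the 16 regions, against 23 nt over 2209 regions of protein-coding genes.

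The group was not at the top of the lists. By summed read number, ACTG1 ranked 68, 122 and 99 among nuclear gene IDs in replicates 1, 2 and 3, and TUBB ranked 71, 82 and 155. ACTB ranked 333, 498 and 1725, TUBA1B 565, 249 and 307, and PFN2 336, 420 and 328. The median summed read number of a gene ID with a peak was 9 in each list. The gene IDs whose values over the 3 replicates lay nearest to those of TUBB, among 3258 with a peak in every list, were those of DDX17, with 118, 129 and 99, PHF6, with 111, 134 and 88, and an ID tied jointly to WDR74 and RNU2-2, with 137, 108 and 105. Their distances on the log2 scale were 0.25, 0.32 and 0.34, and a likeness over 3 samples of 1 group is a description of level only.

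Of 17 other tubulin genes, 13 encode alpha-tubulins or beta-tubulins and none of these had a peak in any list, where 27.6% of protein-coding genes had one. The 3 that did were TUBG1, the gamma-tubulin of microtubule nucleation, and TUBD1 and TUBE1, which belong to the centriole tubulins. TUBG1 had 1 peak with a read number of 3 in replicate 2, TUBD1 had 1 with 3 in replicate 3, and TUBE1 had sums of 4, 3 and 17. None of the 17 held a region in every replicate. Of 86 processed copies of the 10 genes, recognised by their symbols, none was overlapped by a peak in any list. The share among processed copies of other genes was not counted. How reads that fit several places were treated was not given, so this count does not show whether these copies were bound.

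Among 14 other actin and actin-related genes, ACTR2 stood out. ACTR2 and ACTR3 encode the actin-related subunits of the Arp2/3 complex, which starts branched filaments. ACTR2 had summed read numbers of 155, 136 and 134, of the order of TUBB and ACTG1, and its best region had 65, 70 and 56, above every peak of the 10 genes. ACTR3 had 22, 11 and 13 and its best region 5, 5 and 3. ACTL6A, ACTR1A, ACTR3B and ACTR10 had peaks with sums of 3 to 6 where listed, and no region in every replicate. The muscle actin genes ACTA1, ACTA2, ACTC1 and ACTG2 had no peak.

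Other regulators of actin and microtubules also held regions found in every replicate. Over the 5 lists of further cytoskeleton genes, 15 of 143 did, or 10.5%, against 5.99% of protein-coding genes. Of the 73 list genes with a peak 20.5% did, close to the 21.4% of all gene IDs with a peak. Of 48 regulators of actin subunits and filaments 6 did, ENAH, RAC1, RHOA, DIAPH1, CDC42 and CFL2. ENAH, which protects growing filament ends, led them with 6 regions and summed read numbers of 167, 130 and 176, spread over 24, 20 and 21 peaks in a gene of 167050 nt. CFL2, the cofilin known from muscle, had sums of 17, 26 and 26, against 17, 14 and 9 in CFL1, and these values met at 17. RHOA, RAC1 and CDC42 are the switch proteins of actin assembly. RHOA had sums of 35, 41 and 38, RAC1 had 15, 11 and 17, and CDC42 had 18, 16 and 25. DIAPH1, a formin that lengthens filaments, had 18, 13 and 20.

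Of 26 actin crosslinkers and myosins 3 held a region in every replicate, PLS3, RDX and TPM3. PLS3, a filament bundling protein, had a best region with 23, 33 and 24. RDX, which ties filaments to the membrane, had 16, 15 and 18, and the tropomyosin gene TPM3 had 7, 4 and 5. Of 38 genes of tubulin folding and microtubule control 4 did, STMN1, CKAP5, DYNC1H1 and SPAST. STMN1 encodes stathmin, which binds free tubulin, and its best region had 10, 13 and 14. CKAP5, a microtubule polymerase, had 10, 6 and 8, DYNC1H1, the heavy chain of cytoplasmic dynein, had 7, 8 and 7, and SPAST, a severing enzyme, had 7, 6 and 3. TTC5, which directs the decay of tubulin messenger RNA when free tubulin is in excess, had peaks with sums of 7, 9 and 9 and no region in every replicate.

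**Figure D5:**
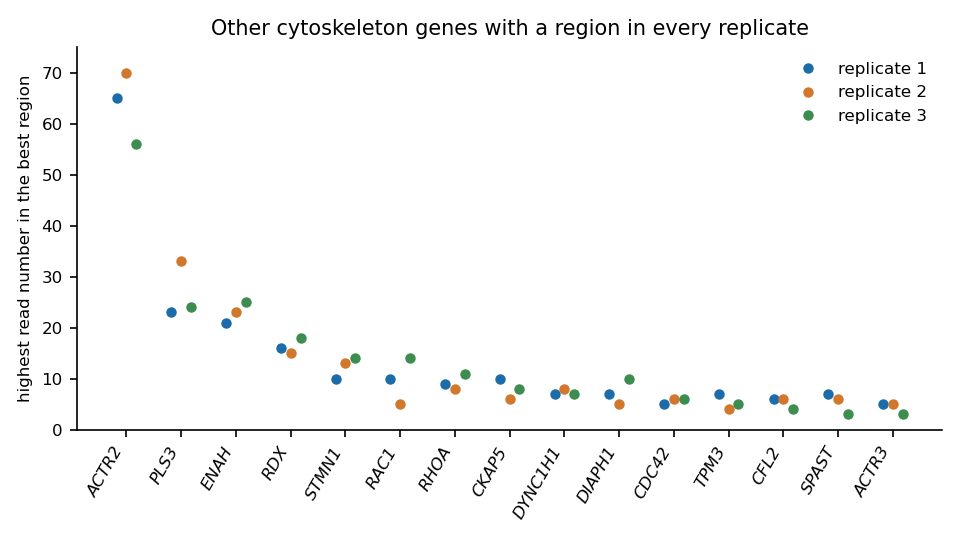
Highest read number in the best region of the 15 further cytoskeleton genes that held a region in every replicate, with 1 point per replicate. ACTR2 lies between 56 and 70 in the 3 replicates, and no other gene exceeds 33.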

How the data were processed

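RNA crosslinked to HA-tagged HNRNPA0 was mapped by easyCLIP in 3 replicates of HEK293T cells, per the labels' protocols. The authors deposited 1 peak list per replicate, with positions on hg38, and bedtools and deepTools are named without version, per the submitters' processing notes. Adapters carried random bases that tag single molecules, per the labels' protocols. Whether reads were collapsed by them, and which aligner and caller were run, is not given in the sources used here. Every peak has a deposited p-value, whose test and adjustment are unstated, and a name that ends in an unlabelled whole number, taken as its count of reads. Read numbers were not scaled.

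Gene IDs were tied by position to RefSeq genes (GRCh38.p14, 59792 rows) that contained at least 90% of their peak centres, since the files do not pair IDs with symbols. Of 6583 IDs, 5867 were tied to 1 protein-coding gene and 206 to none. At PFN2, where 2 IDs were tied, the ID with more peaks was used. Peaks of the same interval and strand were counted once in totals. Paralogs were compared within each library by an exact two-sided sign-flip permutation test. For 3 pairs with a gene listed without a peak, the planned log2 ratio was replaced by a difference. The region finder was tested on simulated data. Members, gene lists and the distances used were chosen with earlier results of these data known. The text names all 10 genes, up to 15 genes of the fixed lists with a region in every replicate by their best region, other actins and tubulins with a peak, and the 3 gene IDs nearest to the leading gene. Genes singled out for having no peak, or for a known role, were added after their values were seen. Alternatives were the 50% of peaks with the lowest p-values in a list, a read number of 5 or more, the highest peak of each gene, touching peaks as 1, 50% overlap, 2 of 3 lists and each replicate left out. Python 3.11.15, numpy 2.4.6, pandas 2.3.3 and scipy 1.17.1 were used.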

Additional observations from a re-analysis of the deposited data

How the results depend on the processing

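The direction of all 5 paralog differences held under every alternative that gave a value, and the number of the 10 genes with a region in every replicate stayed between 5 and 8. The share of all genes with such a region was taken in the main setting only. Regions of the 10 genes numbered 8 where overlaps had to cover 50% of each of the joined peaks, against 16. They numbered 32 when 2 of the 3 lists sufficed, and 19 to 23 with each replicate left out, when a region needed 2 lists. The share of nuclear-encoded read numbers in the group was 0.517% among the 50% of peaks with the lowest p-values and 0.567% among peaks with at least 5 reads, against 0.401%, and 0.372% to 0.439% with each replicate left out. The cause was not tested. The share of the group's read number in the 3' segment of the gene was 74.6% with the highest peak of each gene in place of the sum, against 57.4%, and 50.7% to 62.2% with each replicate left out. The mean log2 difference of ACTG1 over ACTB ranged from 1.27 without replicate 3 to 2.13 without replicate 2, and that of TUBB over TUBB4B from 3.33 to 3.78 with each replicate left out. The TUBB ratio could not be given among the 50% of peaks with the lowest p-values or at a read number of 5 or more, where TUBB4B had no peak in at least 1 list. The values per kb of gene interval, and the region counts at a read number of 5 or more, were chosen after seeing the data. Paralogs were compared within each library, and no block across groups could be fitted because the 3 samples form 1 group. PFN1, TUBA1A, TUBB4B, CFL1 and ACTB had peaks at or near the lowest listed read number of 3.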
